A study of Homo sapiens with 4 samples.

Results

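The comparison described here is that of HCC-LM3 cells labelled sh-WDR4-2 with HCC-LM3 cells labelled sh-NC, 1 RNA-seq library each of the 4 in the series. HCC-LM3 is an established human hepatocellular carcinoma (HCC) line with high metastatic potential. By the methods, stable lines were made with a lentivirus for a short hairpin RNA, either sh-WDR4-2, directed at WDR4, or the scrambled sh-NC, and no value here shows what share of the cells carried it. The labels give a time of 48 h for both libraries. The treatment label of the sh-WDR4-2 library names WDR4 without a hairpin, and its description carries the tag L4 where the sh-NC library carries L3, so that whatever this tag marks cannot be told apart from the hairpin. The other pair, Huh-7 cells with the same hairpins, is given only beside the HCC-LM3 values. Of 19225 entries in the deposited table, 9718 genes had a mean of at least 10 CPM (counts scaled to a common library total) over the HCC-LM3 libraries and a symbol that stood in the order of the table, and these were compared.

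WDR4 is the non-catalytic partner of METTL1, and together they place 7-methylguanosine (m7G) on a subset of tRNAs, a mark that supports tRNA stability and translation. Hypoxia-inducible factor (HIF) is a dimer of an oxygen-labile alpha subunit and the stable ARNT, and prolyl hydroxylases of the EGLN family mark the alpha subunit for destruction by VHL when oxygen is present. In low oxygen the dimer binds the hypoxia response element, with the core RCGTG, where R is A or G, and induces glucose transporters, glycolytic enzymes, carbonic anhydrase, angiogenic factors and enzymes of collagen maturation. Cultured liver cancer cells are known to switch this programme on in low oxygen and in dense culture, and neither oxygen nor density was recorded in the labels.

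The HCC-LM3 sh-WDR4-2 library held 29807047 counts and the sh-NC library 40572251 counts. With 1 library per group there was no replicate check and no p-value was made. Each log2 fold change is sh-WDR4-2 over sh-NC on CPM scaled by the trimmed mean of M values (TMM), with 0.5 added to the CPM, and the interval in parentheses is a 95% counting interval of the count ratio. Such intervals cover counting error only, since PCR copies are not independent molecules and the spread between cultures is unknown. The half-width of this interval was 0.21 on the log2 scale for a gene at 10 CPM and 0.066 at 100 CPM.

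For the targeted gene WDR4, the HCC-LM3 sh-WDR4-2 library held 1009 counts (31.6 CPM) and the sh-NC library 1604 counts (36.9 CPM). Its log2 fold change was −0.22 (−0.34 to −0.11), so the targeted mRNA was lower by less than 1.3-fold, and libraries are therefore named by their labels. The check of the line against liver genes found ALB and TTR at 0 counts in both HCC-LM3 libraries, HNF4A at 4 counts and 8 counts, and AFP at 0 counts and 6 counts. Of 24 liver plasma proteins, 18 were below 10 CPM in HCC-LM3 cells and 4 had a symbol in doubt, and of 17 hepatocyte transcription factors 12 were below 10 CPM. In the Huh-7 libraries ALB and TTR were also at 0 counts and AFP at 2 counts and 0 counts. For ALB, TTR and AFP, whether the low counts belong to the cells or to the deposited table cannot be told apart. HNF4A had 1980 counts in the Huh-7 sh-WDR4-2 library and 2033 counts in the Huh-7 sh-NC library. The deposited table thus carries HNF4A, and its low counts were those of the HCC-LM3 libraries. The proliferation marker MKI67 had 17098 counts and 22073 counts, or 536 and 508 CPM.

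Most genes barely differed. Of the 9718 genes, 97.7% lay within 1.3-fold, the median log2 fold change was −0.01 and the central 90% ran from −0.23 to 0.24. In the sh-WDR4-2 library 163 genes (1.68%) exceeded their sh-NC level by over 1.3-fold, and 58 genes (0.597%) lay below it by over 1.3-fold. Past 2-fold, 12 genes (0.123%) were higher and 0 genes (0%) were lower. The band between 1.3-fold and 2-fold thus held 151 of the 163 higher genes and all 58 lower genes. The whole counting interval lay past 1.3-fold in 86 higher genes and in 10 lower genes.

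**Figure D1:**
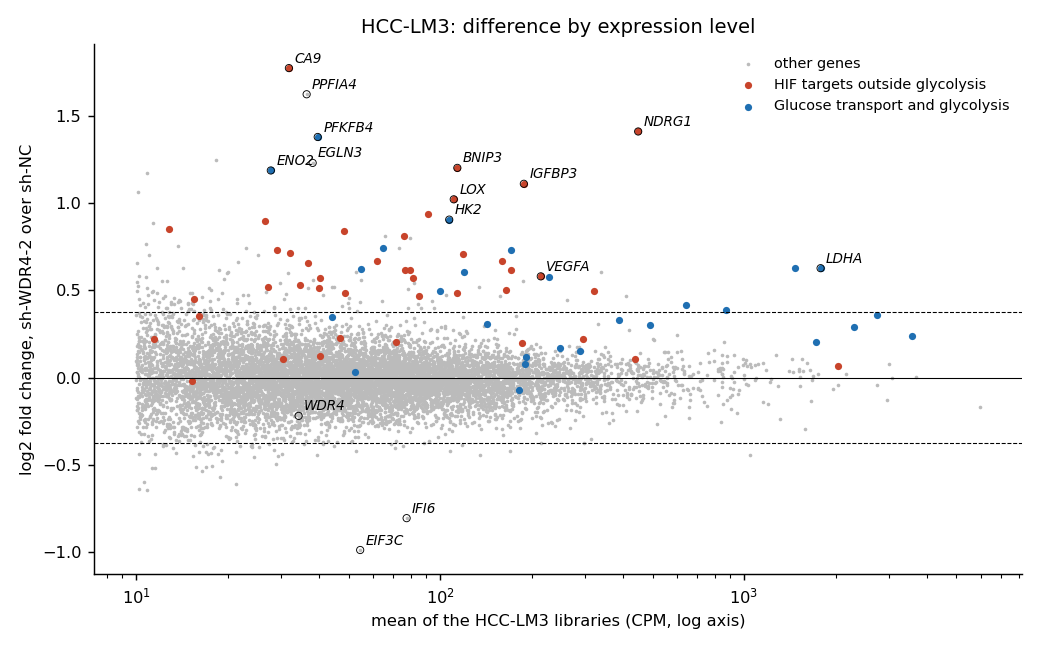
Log2 fold change of 9718 genes, HCC-LM3 sh-WDR4-2 over sh-NC (vertical axis), against the mean CPM of both libraries (horizontal axis, log scale), with 1 point per gene. Dashed lines mark 1.3-fold. The coloured glycolysis and HIF target genes lie above 0 in 67 of 69 cases, while EIF3C and IFI6 are the lowest points.

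The higher genes were led by genes known to respond to low oxygen. The list of glucose transport and glycolysis genes and the list of other HIF targets held 69 genes measured in HCC-LM3 cells, of 75 in the table. Of these 69 genes, 44 (63.8%) were past 1.3-fold on the higher side and 0 on the lower side, against 119 of 9649 other genes (1.23%) more than 1.3-fold higher. The 44 made up 27.0% of all 163 higher genes. Only 7 of them exceeded 2-fold, and 37 lay in the band between 1.3-fold and 2-fold. The median over the 69 genes was 0.51, beside −0.01 over all genes. Their summed level was 27741 CPM in the sh-WDR4-2 library and 21312 CPM in the sh-NC library. These lists were assembled with earlier results of these data known, so the counts describe them and are no independent evidence.

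The promoters of the leading genes were read from the RefSeq promoter table (GRCh38.p14), 250 bases before each start, to show where the core ACGTG stands in them. Each line below is written 5′ to 3′ on the strand of the gene, and the capitals mark 1 match per window, to ACGTG or, where it lies on the opposite strand, to its reverse complement CACGT. The windows shown are those of CA9 (chr9:35673885-35673927, plus strand, ending at the start of transcription), PPFIA4 (chr1:203026348-203026402, plus strand), BNIP3 (chr10:131982027-131982081, minus strand), ENO2 (chr12:6914437-6914491, plus strand), LOX (chr5:122078328-122078382, minus strand) and, for the targeted gene, WDR4 (chr21:42879576-42879630, minus strand).
CA9: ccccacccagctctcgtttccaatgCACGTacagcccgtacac
PPFIA4: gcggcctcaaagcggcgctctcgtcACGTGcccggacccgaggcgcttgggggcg
BNIP3: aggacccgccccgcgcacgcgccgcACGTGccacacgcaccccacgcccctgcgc
ENO2: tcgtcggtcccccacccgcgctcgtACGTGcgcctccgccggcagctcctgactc
LOX: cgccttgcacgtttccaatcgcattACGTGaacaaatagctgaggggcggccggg
WDR4: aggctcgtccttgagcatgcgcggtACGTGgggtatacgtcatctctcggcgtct

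In CA9 the first marked base lay 18 bases before the start, in LOX 98, with further matches before the same LOX start at 185, 116 and 42, of which that at 116 stands in lower case in the same line, in PPFIA4 118, in ENO2 118, in BNIP3 133 and in WDR4 66. WDR4, which was lower, thus carried the same letters as the genes that were higher. The core in PPFIA4 and BNIP3 is part of CACGTG, which reads alike on both strands and is also the motif of MYC and other E-box factors. The windows of PFKFB4, IGFBP3 and EGLN3 held no ACGTG, which says only that these letters are not in that window. ACGTG on either strand was found in 28 of 53 promoter windows (52.8%) of the 35 matched genes among the 44 higher list members. The share was 36.4% of 44 windows for list members within 1.3-fold, 23.5% for the higher genes outside the lists, 14% of 50 windows for the lower genes, 23.3% for all measured genes and 18.5% for all 35116 promoters of the table. For GCGTG, the other form of the core, the shares were 58.5%, 34.1%, 39.6%, 48%, 44.9% and 32.2% in the same order, so the share in the lower genes was near that in all measured genes. These shares are of windows and not of genes. A gene with several starts gives several windows, which can overlap and hold the same match, as in LOX. A match is a description of the letters and not a bound site.

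Among HIF targets outside glycolysis, 31 of 42 measured genes were more than 1.3-fold higher, 5 of them more than 2-fold, and 0 were lower by 1.3-fold, with a median of 0.57. CA9, carbonic anhydrase IX, which exports acid from hypoxic cells, had 1582 counts in the sh-WDR4-2 library and 613 counts in the sh-NC library, or 49.6 and 14.1 CPM. Its log2 fold change of 1.78 (1.68 to 1.95) was the highest of the 9718 genes. NDRG1, a stress-responsive gene long used as a hypoxia marker, had 20828 counts and 10635 counts, or 652 and 245 CPM (1.41, interval 1.38 to 1.45). With the most counts of the genes past 2-fold, NDRG1 also had the narrowest interval of them. BNIP3, a mitophagy receptor, had 5082 counts and 2991 counts (1.20, interval 1.14 to 1.28), and its relative BNIP3L had 3841 counts and 2722 counts (0.94, interval 0.87 to 1.01). Both receptors were thus higher, and the interval of BNIP3L included 2-fold. IGFBP3, which binds insulin-like growth factors, had 8244 counts and 5179 counts (1.11, interval 1.07 to 1.17).

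Genes of collagen crosslinking and hydroxylation formed a group within this list. LOX, the lysyl oxidase that crosslinks collagen, had 4754 counts in the sh-WDR4-2 library and 3173 counts in the sh-NC library (1.02, interval 0.96 to 1.09). LOXL2, a related oxidase, had 6282 counts and 5378 counts (0.67, interval 0.62 to 0.72). The prolyl 4-hydroxylase subunits P4HA1 and P4HA2 had log2 fold changes of 0.67 and 0.57, and the lysyl hydroxylase PLOD2 had 0.50 (0.46 to 0.54). PLOD1, another lysyl hydroxylase, stayed at 0.20 (0.15 to 0.25), inside 1.3-fold. VEGFA, the main angiogenic growth factor, had 257 CPM and 172 CPM (0.58, interval 0.54 to 0.63), and ADM, a vasodilator peptide, 32.0 CPM and 22.2 CPM (0.52, interval 0.40 to 0.66). Other secreted or metabolic members past 1.3-fold were HILPDA, a lipid droplet protein (0.90), AK4, an adenylate kinase (0.71), and INSIG2, which restrains sterol synthesis (0.72). The transcriptional regulators MXI1, BHLHE40 and KDM3A, all reported HIF targets, had 0.84, 0.62 and 0.62.

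The 11 measured members of this list inside 1.3-fold ran from −0.02 to 0.35. TFRC, the transferrin receptor, had 66553 counts in the sh-WDR4-2 library and 86575 counts in the sh-NC library, or 2083 and 1992 CPM (0.07, interval 0.05 to 0.08). DDIT4, a stress-induced inhibitor of mTORC1, had 0.22 (0.18 to 0.26), KDM4B had 0.20 and MIF had 0.11. RAB20, at 15.2 CPM and 15.4 CPM, was the 1 member below 0 (−0.02, interval −0.19 to 0.15). SAP30, the higher member nearest to the limit, had 576 counts and 568 counts (0.45, interval 0.30 to 0.64), and KCTD11, just inside it, had 577 counts and 611 counts (0.35, interval 0.20 to 0.53). These intervals overlap, so the limit separates members whose values cannot be told apart. Of the members below 10 CPM, STC1 had 91 counts and 52 counts, EFNA3 319 counts and 314 counts, and CA12 355 counts and 385 counts, and the symbol of ANGPTL4 was in doubt.

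In the glucose transport and glycolysis list 13 of 27 measured genes were more than 1.3-fold higher, 2 of them more than 2-fold, and 26 were above 0, with a median of 0.36. At uptake, SLC2A1, the GLUT1 transporter, had 214 CPM in the sh-WDR4-2 library and 129 CPM in the sh-NC library (0.73, interval 0.68 to 0.79). HK2, the inducible hexokinase, had 4469 counts and 3235 counts (0.91, interval 0.85 to 0.98), while the housekeeping HK1 had 0.31 (0.25 to 0.36). Of the kinases that set fructose 2,6-bisphosphate, PFKFB4 had 1834 counts and 945 counts (1.38, interval 1.29 to 1.52), and PFKFB3 had 0.35 (0.25 to 0.45). The 3 phosphofructokinase isoforms differed among themselves, with PFKP at 0.58 (0.54 to 0.62), PFKL at 0.17 (0.13 to 0.21) and PFKM at −0.07 (−0.12 to −0.02), the only member below 0.

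Lower in the pathway, the enolase isoform ENO2 had 1238 counts in the sh-WDR4-2 library and 727 counts in the sh-NC library (1.19, interval 1.08 to 1.35), but ENO1 had 3878 CPM and 3284 CPM (0.24, interval 0.23 to 0.25). PGK1, phosphoglycerate kinase, had 56904 counts and 50044 counts (0.63, interval 0.61 to 0.65), and LDHA, lactate dehydrogenase A, had 69241 counts and 60996 counts (0.63, interval 0.61 to 0.64). GAPDH, often taken as a reference gene, had 3066 CPM and 2393 CPM (0.36, interval 0.35 to 0.37), which was below 1.3-fold. PDK1 and PDK3, kinases that hold pyruvate back from the mitochondria, had 0.75 (0.67 to 0.84) and 0.61 (0.55 to 0.67). The lactate exporter SLC16A3 had 0.33 (0.30 to 0.36). By the FPKM of the authors, which allow for transcript length, the genes with the largest differences of the list stood low, PFKFB4 at 17.0 and 6.43 FPKM, ENO2 at 17.1 and 7.40 FPKM and HK2 at 21.1 and 11.2 FPKM, against 2298 and 1794 FPKM for GAPDH. SLC2A3, the GLUT3 transporter, was below 10 CPM with 153 counts and 57 counts (1.55, interval 1.42 to 2.33), and GYS1 had a symbol in doubt.

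**Figure D2:**
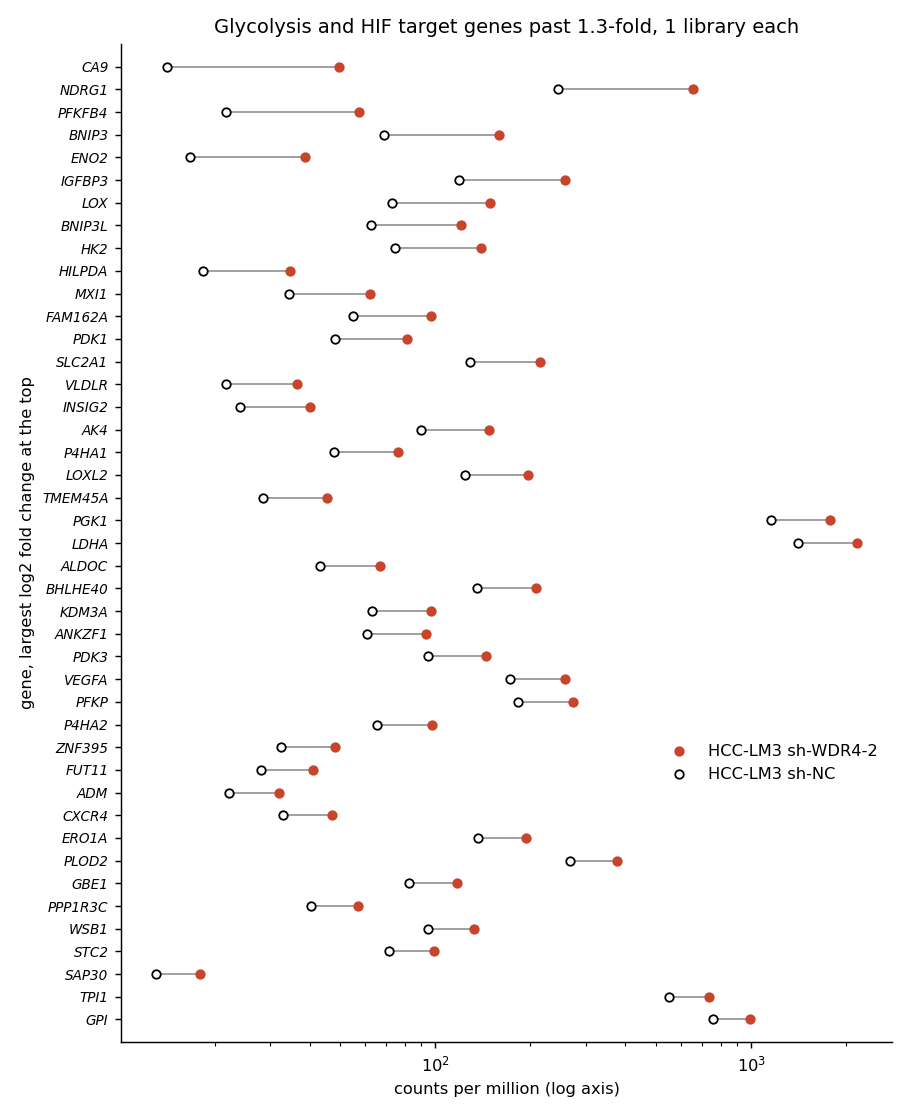
CPM (log axis) of 43 of the 44 glycolysis and HIF target genes more than 1.3-fold higher in HCC-LM3 cells, 1 library per point, filled for sh-WDR4-2 and open for sh-NC, ordered by log2 fold change. Every filled point lies right of its open partner by construction, and the gap narrows from 1.78 on the log2 scale for CA9 to 0.39 for GPI.

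The oxygen-sensing machinery itself differed in part. Of 15 measured genes, 3 (20%) were more than 1.3-fold higher and 1 (6.67%) was lower, with a median of 0.04. Over all 9718 genes the shares were 1.68% higher and 0.597% lower. EGLN3, a prolyl hydroxylase that is itself induced by HIF, had 1713 counts in the sh-WDR4-2 library and 980 counts in the sh-NC library (1.23, interval 1.14 to 1.37). EGLN1, the main prolyl hydroxylase, had 5833 counts and 5728 counts (0.47, interval 0.42 to 0.52), while EGLN2 had −0.20 (−0.29 to −0.13). The alpha subunit HIF1A, which is controlled mostly through its protein, had 648 CPM and 602 CPM (0.11, interval 0.08 to 0.13). EPAS1, encoding HIF-2 alpha, was lower at 145 CPM and 195 CPM (−0.42, interval −0.47 to −0.37). The partners ARNT and VHL had 0.04 (−0.03 to 0.11) and −0.02 (−0.08 to 0.05), and ARNT2, at 13.8 CPM and 8.31 CPM, had 0.70 (0.53 to 0.94).

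Lists linked to culture density or growth arrest showed smaller differences. Of 17 measured targets of YAP and TEAD, which are known to be lower in dense cultures, 0 passed 1.3-fold in either direction and the median was −0.02. Since 1.68% of all genes were higher and 0.597% lower by 1.3-fold, 0 of 17 is near those shares. Of the 17 targets, 6 were above 0 and 11 below. CTGF and CYR61, the best-known of them, had 0.29 (0.19 to 0.40) and 0.17 (0.13 to 0.22). FJX1 and AJUBA, on the other side, had −0.27 (−0.44 to −0.12) and −0.22 (−0.29 to −0.15). Of 20 FOXO, glucose-response and growth-arrest genes, 2 were more than 1.3-fold higher and the median was 0.11. These were CCNG2, an atypical cyclin of resting cells, with 997 counts in the sh-WDR4-2 library and 824 counts in the sh-NC library (0.71, interval 0.59 to 0.85), and ARRDC3, an arrestin-like protein (0.40, interval 0.31 to 0.49). TXNIP, a glucose-responsive member of the same list, had 0.06 (0.02 to 0.10). Immediate early and MAPK feedback genes, which respond within minutes to serum or handling, had 4 of 22 genes more than 1.3-fold higher, EGR1 (0.80), DUSP5 (0.58), ATF3 (0.57) and FOS (0.52), with a median of 0.07. JUNB and IER2, also immediate early, had −0.02 and −0.00, and 11 of the 33 genes listed were below 10 CPM. Outside any list, the nuclear receptors NR4A1 and NR4A2, also induced by such stimuli, had 0.81 (0.74 to 0.90) and 0.51 (0.37 to 0.69).

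The cell cycle is the pathway the study turned to. Of 39 measured genes of DNA replication and G1/S, 0 passed 1.3-fold and the median was 0.04. Of 41 measured genes of mitosis and G2/M, 0 passed 1.3-fold and the median was 0.02, with values from −0.21 to 0.19. Among all 9718 genes 1.68% were higher and 0.597% lower by 1.3-fold. A count of 0 in lists of this size is near those shares. CDC25C, the phosphatase of mitotic entry, had 351 counts in the sh-WDR4-2 library and 547 counts in the sh-NC library (−0.19, interval −0.39 to 0.00). A further 7 symbols of the G2/M list and 4 of the G1/S list were in doubt, among them CCNB1, CDK1, PLK1 and PKMYT1, and are given no difference here. Outside both lists, CCNG2 (above), CCND2, a D-type cyclin (0.40), and E2F8, an E2F repressor (0.39), were past 1.3-fold. MYC had 211 CPM in each library (−0.00, interval −0.05 to 0.04). None of 23 genes of the BCL2 family and caspases passed 1.3-fold, which is also near the shares over all genes. Of the mesenchymal markers, FN1 had 0.25 (0.11 to 0.40), VIM 0.07 (0.05 to 0.09) and CDH2 −0.02 (−0.12 to 0.08). EIF2A had 0.09 (0.03 to 0.16).

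Among the m7G writers, METTL1 had 436 counts in the sh-WDR4-2 library and 729 counts in the sh-NC library (−0.29, interval −0.47 to −0.12), close to the value of WDR4. TRMT112, an activator of several methyltransferases, had −0.14 (−0.21 to −0.08), and RNMT, which methylates the mRNA cap, had −0.00 (−0.08 to 0.07). All 5 measured writers were below 0, where the median over all genes also lay (−0.01), and 0 passed 1.3-fold. The lists of translation genes had medians of 0.04 over 79 cytosolic ribosomal proteins, 0.04 over 30 initiation factors, 0.01 over 33 ribosome biogenesis genes and −0.08 over 23 aminoacyl-tRNA synthetases. EIF3C, an initiation factor subunit outside that list, had the lowest value of all genes and is described with the lower genes.

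NRF2 targets, which defend against oxidants, lay below 0 in all 25 measured members, 2 of them past 1.3-fold, with a median of −0.17. All genes together had a median of −0.01, and 0.597% were lower by 1.3-fold. No other list with more than 5 measured members lay wholly on 1 side of 0. SQSTM1, the autophagy receptor p62, had 28309 counts in the sh-WDR4-2 library and 52417 counts in the sh-NC library, or 887 and 1206 CPM (−0.44, interval −0.46 to −0.42). SLC7A11, the cystine importer, had 3257 counts and 5798 counts (−0.39, interval −0.45 to −0.32). HMOX1, haem oxygenase, had −0.30 (−0.46 to −0.16), TXNRD1 −0.25 (−0.28 to −0.23) and NQO1 −0.24 (−0.29 to −0.20). Their summed level was 12488 CPM in the sh-WDR4-2 library and 14358 CPM in the sh-NC library. The glutamate-cysteine ligase subunits GCLC and GCLM, at −0.07 and −0.06, had intervals that included 0.

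Interferon-stimulated genes had 25 of 29 measured members below 0, 1 of them past 1.3-fold, with a median of −0.10. The median over all genes was also below 0, at −0.01, and 0.597% of them were lower by 1.3-fold. The interferon-stimulated gene past 1.3-fold was IFI6, an interferon-induced mitochondrial protein. It had 1798 counts in the sh-WDR4-2 library and 4301 counts in the sh-NC library, or 56.3 and 98.9 CPM (−0.81, interval −0.89 to −0.73). ISG15, a ubiquitin-like modifier, had −0.36 (−0.47 to −0.26), and BST2, which tethers virions, had −0.29 (−0.33 to −0.25). OAS1 ran the other way at 0.19 (0.10 to 0.29) and IFIT1 at 0.08 (−0.03 to 0.19), so the members differed in direction. Cholesterol synthesis and uptake had 22 of 25 genes below 0 and a median of −0.09, with TM7SF2, a sterol reductase, as the only gene past 1.3-fold (274 counts and 513 counts, −0.44, interval −0.68 to −0.25). All 4 measured keratins were below 0, KRT80 at −0.44 (−0.50 to −0.39), KRT7 at −0.30 (−0.31 to −0.28), KRT8 at −0.13 and KRT18 at −0.12. Of the adhesion receptors, ITGA5, the fibronectin receptor subunit, had 2925 counts and 2365 counts (0.75, interval 0.67 to 0.83), and ITGB4 had 0.46 (0.28 to 0.67), while ITGB1, the beta subunit that pairs with ITGA5, had 0.02 (−0.00 to 0.05).

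In the list of ATF4 and integrated stress response genes 3 of 22 were more than 1.3-fold higher and 2 were lower. The higher genes were VLDLR (0.73), ATF3 (0.57) and STC2 (0.47), of which VLDLR and STC2 also stand in the HIF list, and the lower genes were SLC7A11 and NUPR1 (−0.39, interval −0.47 to −0.32). Mitochondrial genes differed little, with medians of −0.06 over 37 subunits of respiratory complex I, −0.05 over 39 subunits of complexes II to V, −0.03 over 17 TCA cycle genes and −0.04 over 77 mitochondrial ribosomal proteins, and 0 of these genes passed 1.3-fold. For all genes these shares were 1.68% higher and 0.597% lower. Transcripts of the mitochondrial lists are short. Over 5 equal bins of transcript length the median of all genes ran from −0.05 in the shortest bin (351 to 1856 bases) to 0.03 in the longest (5321 to 82900 bases). With the median of each length bin subtracted, complex I and complexes II to V both had −0.01 and the mitochondrial ribosomal proteins −0.01, while the HIF targets had 0.58, glycolysis 0.38 and the NRF2 targets −0.15. This subtraction was chosen after seeing the data.

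**Figure D3:**
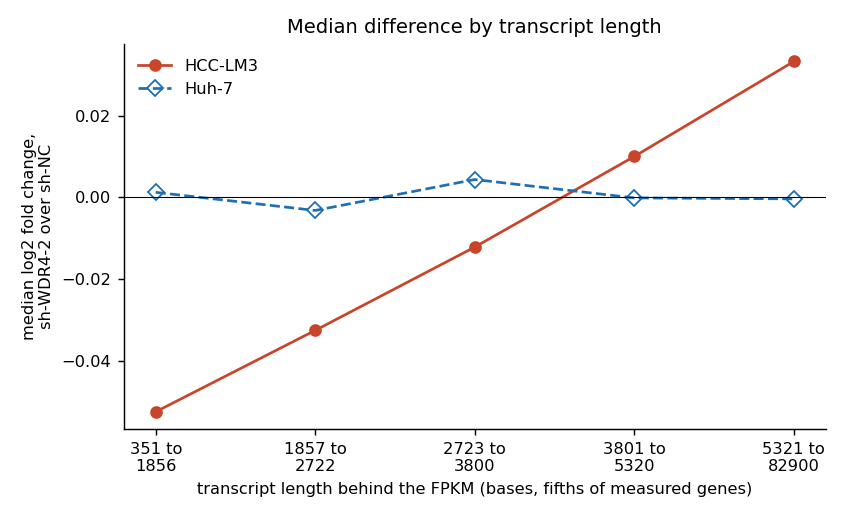
Median log2 fold change, sh-WDR4-2 over sh-NC, over 5 equal bins of transcript length in bases, for HCC-LM3 (filled) and Huh-7 (open). The HCC-LM3 medians climb from −0.05 to 0.03 with length, and the Huh-7 medians lie between −0.003 and 0.004.

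**Figure D4:**
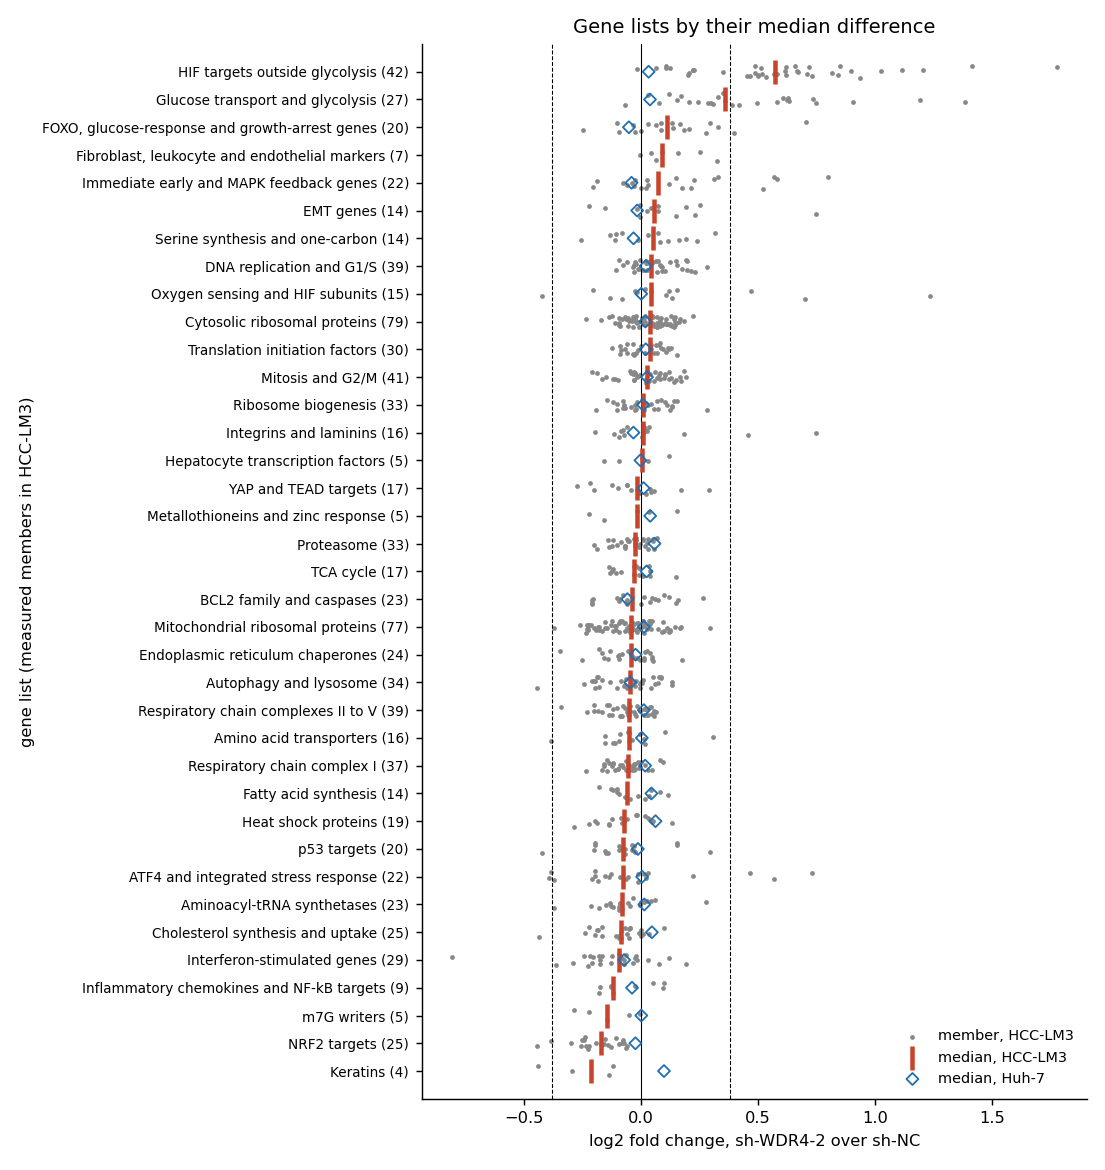
Log2 fold changes, sh-WDR4-2 over sh-NC, of the members of each gene list with at least 4 measured genes in HCC-LM3 cells (grey points), with the HCC-LM3 median (bar) and the Huh-7 median (open diamond). The HIF and glycolysis lists stand at 0.57 and 0.36, every other HCC-LM3 median lies between −0.22 and 0.11, and dashed lines mark 1.3-fold.

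Of the 163 higher genes, 119 belonged to neither hypoxia list and 108 to no list at all. The 119 include EGLN3, described above as induced by HIF, so these counts follow list membership and not the response to oxygen. PPFIA4, a liprin scaffold protein, had 1764 counts in the sh-WDR4-2 library and 763 counts in the sh-NC library (1.63, interval 1.53 to 1.78) and was second only to CA9. SH3D21 had 444 counts and 277 counts (1.07, interval 0.91 to 1.35), and PPP2R3B, a phosphatase subunit, had 485 counts and 281 counts (1.17, interval 1.02 to 1.45). PPP2R3B lies in the pseudoautosomal region, whose X and Y copies can make counting uncertain, which was not tested. In Huh-7 cells it had −3.06, on 26 counts and 367 counts. NOMO3 had 832 counts and 463 counts (1.25, interval 1.13 to 1.46), but 93.7% of its 51-base words also occur in other genes, 88.9% in NOMO2. The sum of NOMO1, NOMO2 and NOMO3 had 0.13 (0.10 to 0.17). SMN1 (0.66) and CDK11A (0.49) likewise shared sequence with a copy, and the sums with SMN2 and CDK11B had 0.51 (0.40 to 0.63) and 0.16 (0.07 to 0.24). Beside these, NOTCH3, a Notch receptor, had 0.63, SPRY1, a feedback inhibitor of receptor kinases, 0.55, and PDGFB, a growth factor, 0.46, which were picked out after their values were seen.

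The lower genes were fewer and less alike, and 50 of the 58 belonged to no list. EIF3C, a subunit of the initiation factor eIF3, had 1162 counts in the sh-WDR4-2 library and 3165 counts in the sh-NC library (−0.99, interval −1.10 to −0.90). Its near-identical copy EIF3CL, which shares 50.2% of the words of EIF3C, had 268 counts and 261 counts, and their sum had −0.81 (−0.91 to −0.73). HAGHL, KLHL4, CPA4, a carboxypeptidase, and OLR1, the oxidised LDL receptor, had values from −0.65 to −0.60, on 251 to 536 counts in the sh-WDR4-2 library and 545 to 1126 counts in the sh-NC library. RAB3IL1, C9orf3, KIAA0319, MRM1, a mitochondrial rRNA methyltransferase, FAM173A, POLR2I, a subunit of RNA polymerase II, NOL4L, PSG4 and PHLDA2 followed, from −0.57 to −0.48. C1R and C1S, the proteases that start the complement cascade, both had −0.38. Low expression weighed on these counts, since in the lowest of 5 equal bins of expression (up to 22.3 CPM) 3.65% of genes were higher and 1.70% lower by 1.3-fold, against 1.08% and 0.206% in the highest bin.

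In Huh-7 cells 25 of 9569 genes (0.261%) were more than 1.3-fold higher and 28 (0.293%) more than 1.3-fold lower. Of the 163 genes higher in HCC-LM3 cells, 126 were measured in Huh-7 cells, where 3 were also higher, 3 were lower and the median was 0.00. Of the 58 lower genes, 46 were measured, with 1 lower and 1 higher. WDR4 itself had 990 counts in the Huh-7 sh-WDR4-2 library and 1077 counts in the Huh-7 sh-NC library (−0.02, interval −0.15 to 0.11). This interval includes 0, so the Huh-7 counts show no lower level of the targeted mRNA. None of the 70 glycolysis and HIF genes measured in Huh-7 cells passed 1.3-fold, the range was −0.37 to 0.32 and 45 were above 0. CA9 had 254 counts in the Huh-7 sh-WDR4-2 library and 261 counts in the Huh-7 sh-NC library (0.06, interval −0.19 to 0.32), and NDRG1 had 54769 counts and 60921 counts (−0.05, interval −0.07 to −0.03). NRF2 targets had a Huh-7 median of −0.02, with 7 of 23 above 0. With 1 library per group no test of one cell line against the other was made, and the L4 tag, the cell line and the hairpin cannot be told apart in it.

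**Figure D5:**
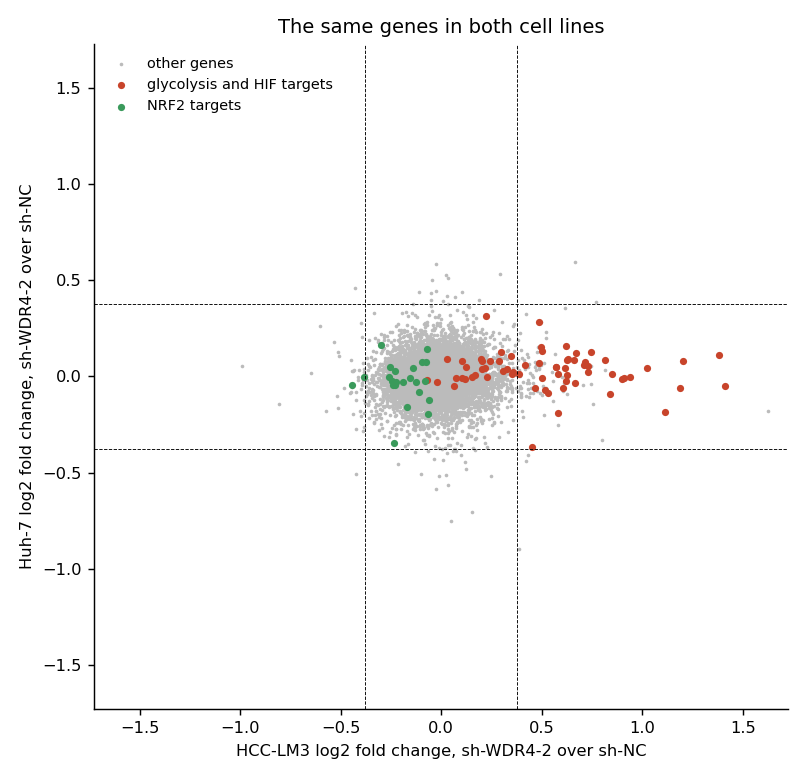
Log2 fold change, sh-WDR4-2 over sh-NC, in HCC-LM3 cells (horizontal axis) and Huh-7 cells (vertical axis) of 8949 genes measured in both, with 1 further gene, CD99, beyond the vertical axis. The glycolysis and HIF genes (red) spread to the right along 0 of the vertical axis, NRF2 targets (green) lie left of 0, and dashed lines mark 1.3-fold.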

How the data were processed

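RNA-seq of 4 libraries was made from poly(A) RNA on an Illumina NovaSeq. The authors gave whole-number counts and FPKM for each symbol in 1 file. The deposited counts were compared, and the deposited FPKM gave the transcript length behind each entry and the levels of 4 genes compared per length. Bowtie 0.12.2 is listed in the processing notes of the submitters, as are mm8 and mm9, which are mouse builds, none with a stated role. Not given in the sources used here were the read counter, the human build and the strand setting.

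Symbols that left the order of the table (231 of 19225, 27 of them dates) were taken as in doubt and left out, which removed 113 of 9831 entries with at least 10 CPM. TMM factors came from edgeR 4.0.16 in R 4.3.3 over all 4 libraries, and fold changes, exact binomial counting intervals and medians from Python 3.11.15 (pandas 2.3.3, scipy 1.17.1 and numpy 2.4.6), checked on simulated counts. A called gene differed by more than 1.3-fold in the point value, and "measured" means a mean of at least 10 CPM. Promoters came from the RefSeq table of GRCh38.p14, and shared 51-base words from GENCODE release 29 transcripts.

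Named genes were the 15 largest rises and falls, up to 4 members of each of 39 lists, the genes the study names, and CA9, NDRG1 and WDR4. Further members were named for their place in a pathway after their values were seen. A few genes that this rule picks are not reported here. Members and lists were chosen with earlier results of these data known. Alternatives were DESeq2 1.42.0 size factors, other TMM factors or total counts, a minimum of 1 or 50 CPM or none, a pseudocount of 0.1 or 1, calls by the whole interval, and all symbols as deposited. Alternatives not planned in advance were the length subtraction, leaving out genes with near-identical copies, and exchanging back symbols that stood in each other's place.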

Additional observations from a re-analysis of the deposited data

Results flagged for a closer look

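In 6 genes the HCC-LM3 and Huh-7 pairs differed by more than 1.3-fold in opposite directions, and none of these contrasts was tested. PPP2R3B and KIAA0319 had means of only 5.39 and 1.06 CPM in Huh-7 cells. They were included under a minimum of 1 CPM there for named genes, and are not among the genes counted above as measured in Huh-7 cells. PPP2R3B had a log2 fold change of 1.17 in HCC-LM3 cells, on 485 counts in the sh-WDR4-2 library and 281 in the sh-NC library, and −3.06 in Huh-7 cells, on 26 counts and 367 counts. ASMTL had 0.42 in HCC-LM3 cells and −0.44 in Huh-7 cells. Both lie in the pseudoautosomal region, as does CD99. The near-identical X and Y copies of this region can make counting uncertain, which was not tested. CD99 had 0.54 in HCC-LM3 cells, on 3111 counts and 2904 counts, and 5.13 in Huh-7 cells, on 3091 counts and 77 counts. ENDOG, a mitochondrial nuclease, had 0.39 in HCC-LM3 cells, on 607 counts and 627 counts, and −0.89 in Huh-7 cells, on 349 counts and 712 counts. FOXD1, a forkhead factor, had 0.43 in HCC-LM3 cells and −0.41 in Huh-7 cells. SYPL2 had −0.43 in HCC-LM3 cells and 0.46 in Huh-7 cells, and KIAA0319 had −0.52 in HCC-LM3 cells and 0.49 in Huh-7 cells, the last on 45 counts and 29 counts.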

How the results depend on the processing

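No paired analysis was possible because each group had 1 library, and for the same reason no library could be left out. The 163 higher and 58 lower genes past 1.3-fold, and the 12 higher and 0 lower genes past 2-fold, depended on the minimum level and on the call rule. With a minimum of 1 CPM they were 548, 247, 26 and 5. With no minimum they were 913, 487, 37 and 9, and low counts alone widen the values there. With a minimum of 50 CPM they were 52, 11 and 4, with 0 past 2-fold lower, and 18 HIF targets outside glycolysis were past 1.3-fold, since fewer were measured. With the whole counting interval past the fold, 86 were higher and 10 lower. Named genes were compared only under other size factors, other pseudocounts and the length subtraction, and none past 1.3-fold changed sign. These settings shift a value little at 10 CPM or more, so a kept sign was nearly fixed in advance. The TMM factors of the HCC-LM3 libraries, for example, were 1.0711 for sh-WDR4-2 and 1.0714 for sh-NC. Among the list medians only that of HIF targets outside glycolysis was past 1.3-fold, and its sign was kept. Of 1026 alternative values of named genes, 1010 stayed within the counting interval of the value reported. Of 468 alternative list medians, 457 moved by no more than the median half-width of the intervals of single members. This is a loose limit for a median over several genes. Other size factors and pseudocounts, and all symbols as deposited, kept the counts within 1.5 times. The spread between cultures limits every value and is unknown.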
